A study of Sus scrofa with 4 samples.

Results

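Retroelements are mobile sequences that copy themselves through RNA and a reverse transcriptase, and pig chromosomes hold many copies of LINE-1 and of endogenous retroviruses. Described here are 42 loci of pig testis cells whose deposited protein annotation names such a polymerase. They were chosen from the 26921 rows of the deposited gene tables by name and by annotation text, not by expression: the row had to be either an unannotated locus, listed under a running number with no gene name, or a LOC gene, a RefSeq gene without a symbol of its own, and its hit in the NR protein database had to hold the words reverse transcriptase, Pol polyprotein, pol protein or LINE-1. Unannotated loci are called here by their length, which differs for each. This gave 35 of 638 unannotated rows and 7 of 9683 LOC rows, which are kept apart throughout. A further 8 rows with a gene symbol carry the same words and are not members.

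The cells are labelled as immature spermatogonia of the pig, the undifferentiated germ cells of the testis, from pig testicles. RNA was sequenced from 2 libraries of control cells, given as WT, and 2 libraries with knockdown of ZBTB16, a zinc finger transcription factor known for keeping spermatogonia undifferentiated. Per the labels the samples come from independent experiments. Libraries of a group differed little beyond counting noise, with a common coefficient of variation of 0.0129 in the main fit. The p-values below measure that spread between libraries. Whether it is the spread between separate cell isolations was not tested. The series' design plans lentiviral transduction of primary cells with a short hairpin RNA against this gene, and the labels do not say whether the control cells received a vector, so vector and knockdown cannot be told apart. The labels give no age for these cells.

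LINE-1 encodes an ORF2 protein with an endonuclease at its start and a reverse transcriptase in the middle, and most genomic copies are cut short or carry stop codons. Endogenous retroviruses encode their polymerase in a pol gene between long terminal repeats. In germ cells both are known to be held down by DNA methylation, by histone methylation directed by KRAB zinc finger proteins, and by small RNAs bound to PIWI proteins.

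By the wording of the hit, 10 loci named LINE-1, 8 named a retroviral Pol and 24 named another reverse transcriptase. All 24 of the last class shared 1 NR entry, an endonuclease/reverse transcriptase of the pig, and all 24 also matched LINE-1 ORF2 in Swiss-Prot. In all, 33 of the 42 loci had a Swiss-Prot match to LINE-1 ORF2, 32 carried the GO term for endonuclease activity and 28 the term for RNA-directed DNA polymerase activity. The 216-base locus was taken in by the words LINE-1 although its hit is a LINE-1 type transposase domain protein and not a polymerase. The unannotated loci ran from 207 to 10508 bases with a median of 623, and 16 of the 35 were under 450 bases. The 7 LOC loci ran from 874 to 10592 bases.

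The unannotated rows come with no position or sequence, so only the LOC loci could be placed on the assembly Sscrofa11.1. LOC100516731 is annotated as a long noncoding RNA of 3 exons on the plus strand at chr4:45793437-45807328. Its second exon holds an open frame of 178 codons whose translation matched the endonuclease end of LINE-1 ORF2. The same 534 bases matched the pig genome 18704 times at a blastn E value of at most 1e-20, and 10506 of the matches were at least 500 bases long. Beside those long matches lay 492 open frames of at least 900 codons, the longest of 1361 codons on the minus strand at chrX:32164663-32168745. A pair of sequences shows how near a transcribed locus can be to an open copy elsewhere. They are 150 bases of the endonuclease end, chr4:45801520-45801669 (plus) and chrX:32168329-32168478 (minus), with capitals at the bases that differ.
LOC100516731: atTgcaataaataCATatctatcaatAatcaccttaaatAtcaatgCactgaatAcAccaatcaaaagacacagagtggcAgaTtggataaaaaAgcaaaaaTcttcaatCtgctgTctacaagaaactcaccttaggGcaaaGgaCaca
Longest frame: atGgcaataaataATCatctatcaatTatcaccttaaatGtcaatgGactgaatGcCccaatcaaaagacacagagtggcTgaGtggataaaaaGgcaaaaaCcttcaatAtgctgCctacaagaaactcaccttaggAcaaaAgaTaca

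This window was the best gap-free match of that length in the frame, and 132 of its 150 bases (88%) were identical.

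LOC100521647 is annotated as a protein-coding gene on the plus strand at chr1:16022299-16051345. The deposited row for LOC100521647 was 4181 bases long against 1534 bases in the RefSeq transcript and included an unannotated transcript, as did 6 of the 7 LOC rows. Which part of the locus its reads came from is not given by the gene-level files.

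Translated matches covered 737 of the 1361 codons (54.2%) in LOC100521647, all in introns, at 51.4% to 67.0% amino acid identity. They covered 395 codons in LOC100516731, 374 of them in matches at least partly in exons. In LOC102164659, a long noncoding RNA at chr17:51698126-51712510, they covered 149 codons, 24 of them in exons. In both of these loci some matches ran against the direction of the gene. No match was found in LOC106505246, a long noncoding RNA on the minus strand at chr11:6772062-6780536. Its deposited length, 8314 bases, was greater than the 3853 bases of its RefSeq transcript, and the neighbouring gene UBL3 lay 8449 bases away.

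**Figure D1:**
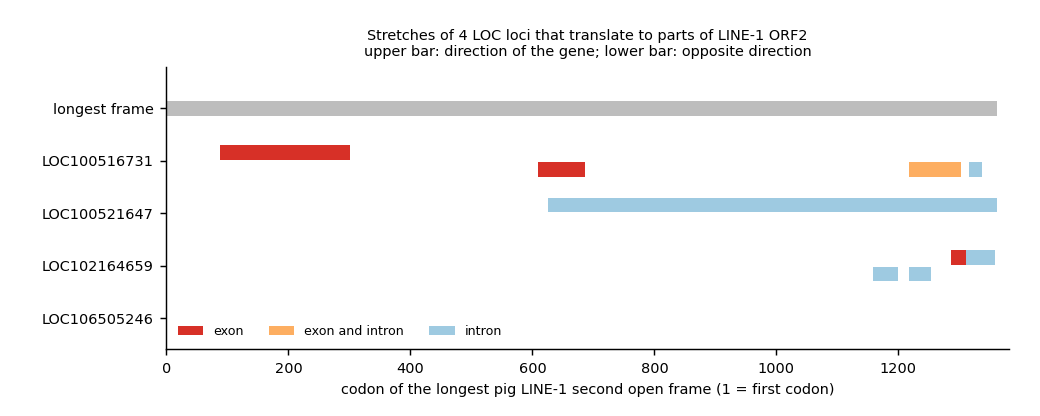
Stretches of the 4 LOC loci of the LINE-1 and other reverse transcriptase classes (rows) that translate to parts of the longest pig LINE-1 ORF2 frame (x axis, codon number). Bars are colored by their place in the RefSeq gene, and bars below the middle of a row run against the gene: LOC100516731 holds the endonuclease end in an exon, LOC100521647 holds the second part of the frame in introns, and LOC106505246 shows none.

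The 3 other LOC loci had retroviral hits and are annotated as protein coding. LOC110256649 lies at chr14:62552003-62557657 (minus), LOC110259374 at chr2:76648079-76651850 (minus) and LOC110256218 at chr1:262166481-262175182 (plus). They resembled each other closely: 5433 aligned bases of LOC110256218 and LOC110256649 were 96.7% identical, and 1711 aligned bases of LOC110256649 and LOC110259374 were 97.9% identical. Reads from such copies cannot always be told apart. RSEM, the authors' counting program, splits such a read among its possible sources, which leaves counts that are not whole. Only 11 of the 42 loci (26.2%) had whole counts (within 0.005) in every library, and 0 of the 8 retroviral ones, against 51.2% of unannotated rows without the hit and 84.7% of all rows. Counts of single loci are therefore uncertain where copies are near identical.

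The libraries held 15983390 to 18500447 counts. Fragments averaged 325.7 and 326.7 bases in the controls but 266.4 and 267.3 after knockdown, going by the deposited lengths and effective lengths of long rows. ZBTB16 itself (chr9:41639536-41839254) stood at 226 and 207 counts in the controls and 188 and 163 in the knockdown, and fell by 0.36 on the log2 scale (edgeR quasi-likelihood test, adjusted p = 0.00338), a call that DESeq2 did not make (adjusted p = 0.0811). Of the germ cell markers, UCHL1 stood at 122 and 120 FPKM in the controls, but DDX4 at 2.3 and 1.96, and NANOS2 at 0.09 and 0. ACTA2, a marker of peritubular muscle cells, stood at 3209 and 3198 FPKM. Summed over their lists, 19 spermatogonial markers held 440 and 433 FPKM in the controls and 354 and 350 in the knockdown. CD9 (193 and 192 against 133 and 138 FPKM) and UCHL1 (89 and 85.2 FPKM after knockdown) made up most of that sum. Of 17 tested markers 6 rose, SALL4, DAZL and ITGA6 among them, and 5 fell, ZBTB16 itself among them, with a median log2 difference of -0.05. SALL4 was low, at 0.25 and 0.27 against 0.51 and 0.51 FPKM, and DESeq2 did not call it (adjusted p = 0.0711). Of all rows tested 22.7% rose and 23.8% fell. The same sums were 789 and 776 against 954 and 979 FPKM for 9 Sertoli markers, and 5358 and 5341 against 5601 and 5517 FPKM for 9 peritubular and stroma markers. Of the Sertoli markers 6 rose and 2 fell, and of the peritubular and stroma markers 5 rose and 3 fell, COL1A2, PDGFRA and DCN, while ACTA2 held most of the sum. For 7 Leydig markers the sum was 222 and 220 against 181 and 192 FPKM, and of 6 tested 0 rose and 2 fell. None of the markers of the 4 lists was at 0 in every library. In bulk RNA fewer cells of a type and less RNA per cell cannot be told apart, and the part of these shifts in the results that follow was not tested.

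Unannotated loci with a polymerase hit took a larger share of the knockdown libraries. They held 0.0308% of all counts in each control library. After knockdown the share was 0.0489% in the first library and 0.0482% in the second. In CPM, counts scaled to library size, their sum was 306 in both controls and 493 and 485 in the knockdown, a ratio of 1.6, and both knockdown libraries lay above both controls. An exact two-sided permutation test gave p = 0.33, the smallest that 2 libraries against 2 allow. Of the 35 loci, 29 had enough counts to be tested, since a low-count filter removed 6 that had at most 15 counts in any library. Of these 29, 17 rose and 3 fell at an adjusted p under 0.05 (edgeR), and 9 did not pass. Over all 15763 rows tested 46.4% passed, 22.7% higher and 23.8% lower. The median log2 difference, knockdown minus control, was 0.69 over the 29 loci, 0.32 over 435 unannotated rows without the hit and -0.00 over all rows. At least a 2-fold difference was called for 12 loci higher and 1 lower, where 2.98% of all rows passed that rule, 1.64% higher and 1.34% lower. Among the 17 rises, the 245-base and 738-base loci passed the low-count filter only through the knockdown libraries. Loci that pass in that way have to differ, so these counts describe the tested loci only. Without the filter, 20 of the 35 were called and 30.5% of all rows. Under the other settings tried, the share of all rows called was 46.6% and 46.7% with other scalings, 34.6% by DESeq2, 45.3%, 45.2% and 30.3% by limma, 47.5% with the replicate number as a block, 40.9% with a length trend removed and 51.9% by unadjusted p.

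**Figure D2:**
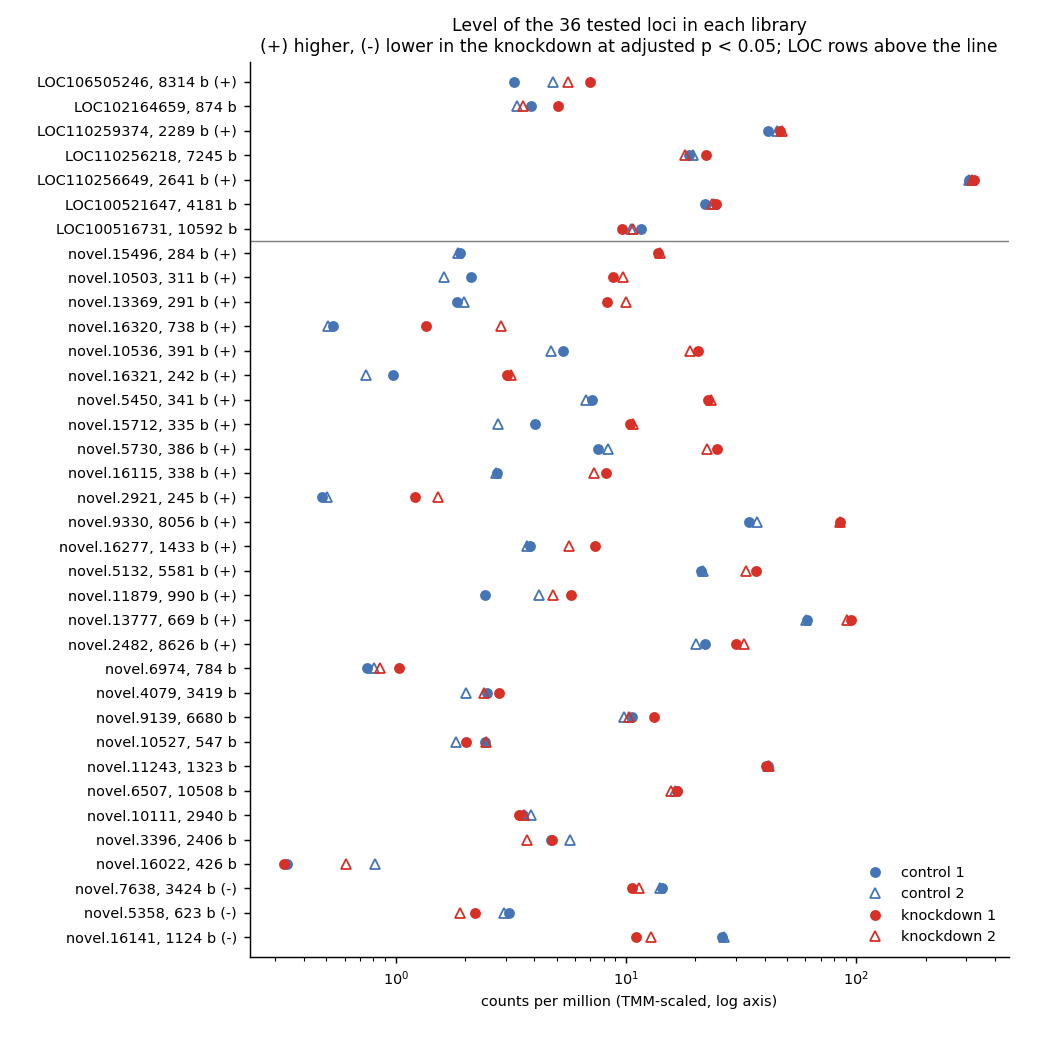
CPM (x axis, log scale) of the 36 tested loci in each of the 4 libraries; unannotated loci are sorted by their log2 difference and LOC loci stand above the line. Row labels give the deposited identifier and the length. For the 11 unannotated loci from the 284-base locus down to the 245-base locus both knockdown libraries lie well to the right of both controls. Of the 7 LOC loci 4 overlap. Of all rows tested 70.6% do not overlap in CPM, beside 72.4% of the 29 unannotated loci and 42.9% of the LOC loci.

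In counts the 3 largest rises were of short unannotated loci of the endonuclease/reverse transcriptase class. The 284-base locus had 33 and 30 counts in the controls and 253 and 230 in the knockdown. All knockdown counts of this locus lay far above the controls, with a log2 difference of 2.88 (SE 0.161, adjusted p = 3.27e-38). The 291-base locus had 32 counts in each control and 152 and 165 in the knockdown, a log2 difference of 2.25. For the 311-base locus the counts were 37, 26, 162 and 159 in the same order, a log2 difference of 2.29. Again neither locus overlapped between the groups. The 391-base locus had 93 and 76 counts in the controls and 378 and 311 in the knockdown, a log2 difference of 1.97. Below 450 bases, 10 of 11 tested unannotated loci with the hit rose, with a median log2 difference of 1.75, and the exception was the retroviral locus of 426 bases. The 10 include the 245-base locus, with 8.30 and 8.13 counts in the controls and 22.2 and 25 in the knockdown.

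Short unannotated rows without the hit rose too. Of 126 tested rows of that kind under 450 bases, 97 rose and 2 fell, with a median of 1.16, whereas of 38 tested rows with a gene symbol at that length 7 rose and 21 fell. A fragment must fit inside a transcript to be counted, and the deposited effective length, the number of places where a fragment can start, states this for each library. For the 284-base locus it was 13.4 bases in the first control library and 34.0 in the first knockdown library. With the effective length as an offset in the fit, which turns the counts into a rate per available start, 8 of the 11 loci rose and 0 fell, with a median of 0.78. By the same measure 18 of the 126 short unannotated rows without the hit rose and 25 fell, with a median of -0.25. Of all rows tested, 46.4% passed under the offset, 22.5% higher and 23.9% lower. The difference between the loci and other short rows was not tested.

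Under the offset the log2 difference was 1.57 for the 284-base locus (adjusted p = 1.45e-08), 1.26 for the 391-base locus, 1.15 for the 311-base locus and 0.98 for the 291-base locus. It was 0.83 for the 386-base locus and 0.78 for the 341-base locus, whose counts went from 132 and 135 to 455 and 368, and from 123 and 107 to 418 and 385. Each of these 6 calls held, as did those of the 335-base locus (0.62, adjusted p = 0.00237) and the 338-base locus (0.51, adjusted p = 0.0192). The calls of the 242-base locus (17 and 12 counts against 56 and 52, offset log2 difference 0.31, adjusted p = 0.437) and the 245-base locus (offset log2 difference -0.02, adjusted p = 0.981) did not. Effective lengths this short multiply small counts: the 242-base locus reached 231, 179, 242 and 254 FPKM on those counts. The FPKM of short loci is therefore not set against that of long ones here.

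**Figure D3:**
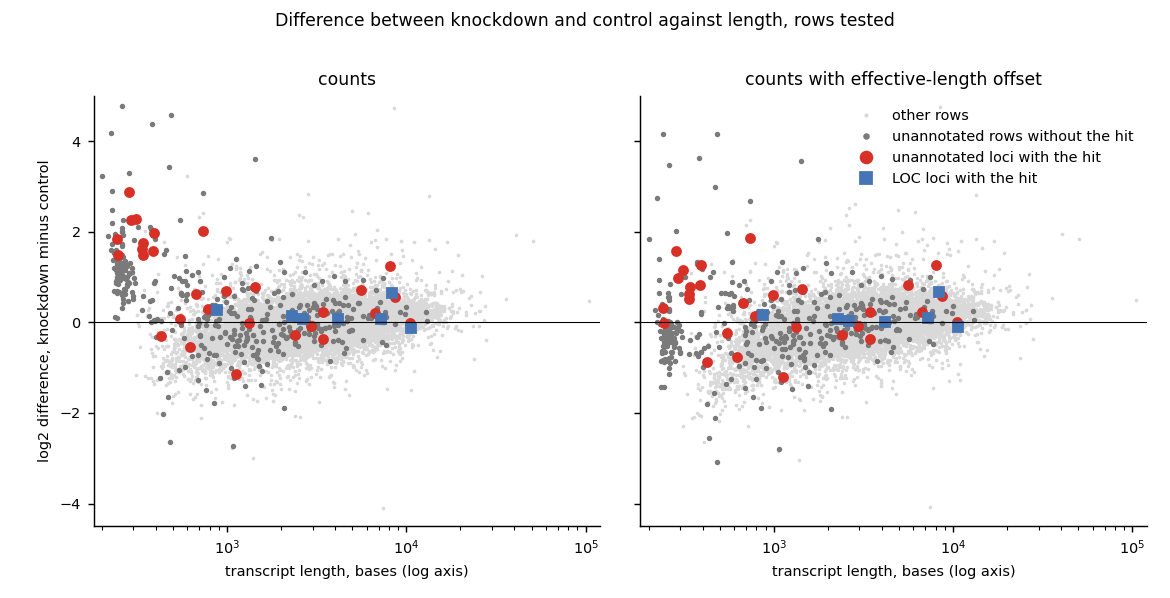
Log2 difference between knockdown and control (y axis) against transcript length in bases (x axis, log scale) for the rows tested, from counts (left) and with the effective-length offset (right); 41 of the 15763 rows lie outside the drawn range in at least 1 panel. Red circles are unannotated loci with the hit, blue squares LOC loci with the hit, dark grey points unannotated rows without it and light grey points other rows. At the left edge the dark grey points move from above 0 to around 0 with the offset, and most red circles stay above it.

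From 450 to under 1000 bases, 3 of 6 tested unannotated loci rose and 1 fell. Of unannotated rows of that length without the hit, 26 of 80 rose and 12 fell, and of all rows of that length 8.9% rose and 60.8% fell. The most counted unannotated locus, of 669 bases, had 1065 and 968 counts in the controls and 1743 and 1499 in the knockdown, or 179 and 176 FPKM against 233 and 225. Both knockdown libraries were higher on either scale, by 0.62 on the log2 scale of counts (adjusted p = 2.46e-27) and by 0.42 with the offset. The 990-base locus rose from 42.3 and 67.6 counts to 106 and 79.2 (log2 difference 0.69, adjusted p = 8.98e-04), and its second control library lay close to the second knockdown library. In edgeR the log2 difference was 0.32 without the first control library (adjusted p = 0.246), 1.13 without the second, and 0.54 without the first knockdown library (adjusted p = 0.075). DESeq2 gave an adjusted p of 0.0676. The retroviral locus of 738 bases was scarce, with 9.29 and 8.20 counts in the controls and 24.9 and 47.1 in the knockdown, a log2 difference of 2.01. With the offset its difference of 1.86 was greater than that of the 284-base locus. Since only its knockdown libraries carried it through the filter, these values are a description. The retroviral locus of 623 bases went the other way, from 54.2 and 47.3 counts to 40.8 and 31.4. It passed narrowly (log2 difference -0.54, adjusted p = 0.0470) and lost the call when any 1 library was left out.

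Long unannotated loci moved both ways. Of 12 unannotated loci of at least 1000 bases, all tested, 4 rose, 2 fell and 6 did not pass, and the same numbers held with the offset. Their median log2 difference was 0.10, against 0.03 for 229 unannotated rows of that length without the hit, of which 61 rose and 46 fell. The 6 that passed are described here because of their calls, and the 4 that rose were picked out after their values were seen.

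The LINE-1 locus of 8056 bases had 595 and 594 counts in the controls and 1554 and 1390 in the knockdown. Its FPKM was 4.45 and 4.81 against 10.8 in both knockdown libraries. The libraries of a group nearly coincided, and the locus rose 2.38-fold (log2 difference 1.25, SE 0.0515, adjusted p = 1.10e-53). The LINE-1 locus of 5581 bases rose from 3.73 and 4.22 FPKM to 7.25 and 6.24 (log2 difference 0.71, adjusted p = 2.14e-17). The 8626-base locus rose from 2.67 and 2.45 FPKM to 3.58 and 3.87 (log2 difference 0.56). The 1433-base locus rose from 3.52 and 3.34 FPKM to 6.29 and 4.81 (log2 difference 0.78). In all 4 both knockdown libraries stood above both controls, and no call was lost under the other scalings, tools, filters, length corrections and left-out libraries that gave a value. Of the 4, only the 8056-base locus met the rule of at least 2-fold. In CPM both knockdown libraries stood above both controls for 35.2% of all rows tested.

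Both falls of long loci were of the endonuclease/reverse transcriptase class. The 1124-base locus, whose annotation also names a zinc finger protein, had 451 and 427 counts in the controls and 203 and 211 in the knockdown. Its FPKM was 33.0 and 33.1 against 13.2 and 14.4, with no overlap, and the count difference was -1.14 on the log2 scale (adjusted p = 1.86e-25). The 3424-base locus fell from 4.63 and 4.54 FPKM to 3.34 and 3.58 (log2 difference -0.37, adjusted p = 0.00189). DESeq2 did not call it (adjusted p = 0.0647). The other long unannotated loci did not pass, with log2 differences from -0.28 for the 2406-base locus to 0.22 for the 3419-base locus. Among them the 1323-base locus, a LINE-1 locus and the most abundant per length of the 12, stood at 42.4, 42.0, 37.5 and 38.9 FPKM, with a log2 difference in counts of -0.01.

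**Figure D4:**
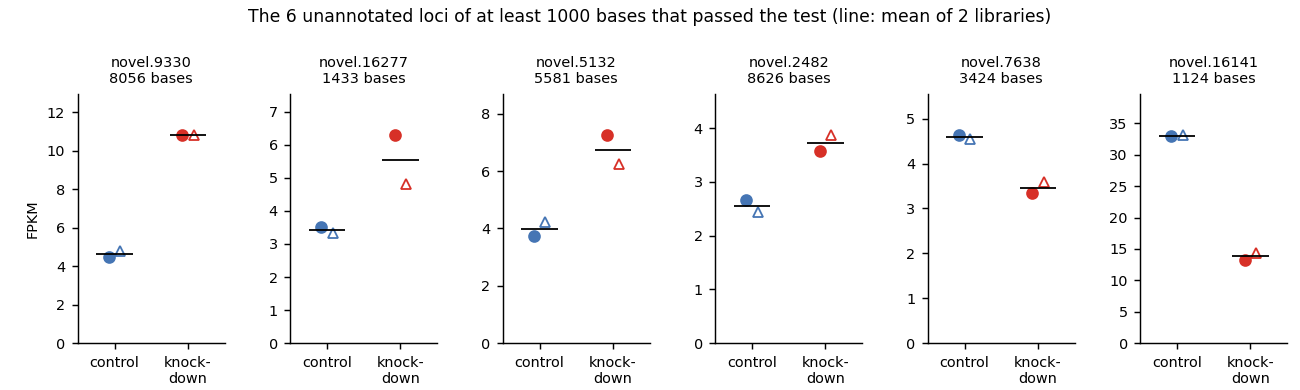
FPKM (y axis, from 0, own scale in each panel) of the 6 unannotated loci of at least 1000 bases that passed the test, in the control (blue) and knockdown (red) libraries, circles for the first and triangles for the second; lines are the means of 2 libraries. Panel titles give the deposited identifier and the length. In the first 4 panels the knockdown libraries lie above the controls, for the 8056-base locus at 10.8 against 4.45 and 4.81, and in the last 2 below.

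A single locus carried most of the rise among long unannotated loci. Their sum was 201 and 203 CPM in the controls and 262 and 258 in the knockdown, a ratio of 1.29, and without the 8056-base locus the ratio was 1.05. In FPKM the ratio of sums was 0.877, the opposite direction. In TPM, the authors' values scaled to a fixed total, it was 1.03 (138 and 138 against 142 and 141). The 1323-base locus and the 1124-base locus had the highest FPKM of the 12. For unannotated loci under 1000 bases the sum went from 106 and 104 CPM to 231 and 227, a ratio of 2.19. By wording of the hit, 14 of 19 tested unannotated loci with another reverse transcriptase rose and 2 fell, 2 of 6 with LINE-1 rose and 0 fell, and 1 of 4 with a retroviral Pol rose and 1 fell. Of all rows tested 22.7% rose and 23.8% fell. With the offset 12 of the 19 loci with another reverse transcriptase rose and 2 fell, and their median went from 1.48 to 0.59. The counts of the LINE-1 and retroviral classes stayed the same. These classes differ in length, with medians of 386, 1323 and 547 bases, and the difference between classes was not tested.

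The LOC loci as a group differed little in counts. Their share of all counts was 0.0411% and 0.0416% in the controls against 0.0437% and 0.0424% after knockdown. The ratio of their sums was 1.05 in CPM, 0.991 in FPKM and 1.16 in TPM, the authors' values scaled to a fixed total (237 and 235 against 278 and 268). All 7 were tested, 3 rose, 0 fell and 4 did not pass, and the median log2 difference was 0.08. The called share, 42.9%, was near the 46.4% of all rows tested. Without the first control library or the first knockdown library, 0 of the 7 were called by edgeR, where 37.4% and 38.4% of all rows were; without the second of each, 2 were, where 38.5% and 37.9% of all rows were.

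The retroviral LOC110256649 was the most abundant of the 7, at 136 and 134 FPKM in the controls and 135 and 130 in the knockdown. The libraries overlapped in FPKM. In counts it rose by 0.06 on the log2 scale (5352 and 4926 against 5968 and 5221, adjusted p = 0.0254), and with the offset it did not pass (adjusted p = 0.446). Its relative LOC110259374 stood at 21.9, 23.2, 22.3 and 23.1 FPKM, also overlapping. It rose by 0.13 in counts (adjusted p = 0.0488) and not with the offset (adjusted p = 0.399). The remaining locus of the near-identical set, LOC110256218, stood at 2.73, 2.83, 3.15 and 2.56 FPKM and did not pass. The summed level of all 8 retroviral loci, unannotated ones included, went from 375 and 377 CPM to 400 and 392. In FPKM it went down, from 191 and 189 to 184 and 185, and in TPM up, from 258 and 255 to 291 and 293.

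Among the other LOC loci LOC106505246 rose, from 0.41 and 0.62 FPKM to 0.87 and 0.68 (log2 difference 0.64, SE 0.167, adjusted p = 5.90e-04; 0.67 with the offset, adjusted p = 0.00400). The groups did not overlap, but the nearest control and knockdown libraries were close, and DESeq2 gave an adjusted p of 0.0525. LOC100521647 stood at 5.90, 6.38, 5.95 and 6 FPKM and LOC100516731, whose endonuclease stretch is printed above, at 1.13, 1.03, 0.92 and 1.03. LOC102164659 stood at 7.04, 6.08, 8.26 and 5.87 FPKM. None of these 3 passed in the main fit and in each the groups overlapped. With the length trend removed, edgeR called LOC102164659 higher (0.56, adjusted p = 0.0083) and LOC100516731 lower (-0.31, adjusted p = 0.0202). LOC100521647 did not pass there (0.02). In that fit 40.9% of all rows were called.

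Genes that silence retroelements in chromatin moved in both directions. Of 31 listed genes that were present, 29 were tested, 11 rose and 6 fell, with a median log2 difference of 0.09, where 22.7% of all rows rose and 23.8% fell. With the length trend removed 7 rose and 6 fell, with a median of 0.02. ATF7IP, the partner that stabilizes the histone methyltransferase SETDB1, rose from 7.95 and 8.22 FPKM to 11.1 and 11 (log2 difference 0.49, adjusted p = 1.20e-19). PPHLN1, the periphilin subunit of the HUSH silencing complex, rose from 21.1 and 20.6 FPKM to 26.2 and 26.7 (0.38). ATRX, a chromatin remodeler that deposits a histone variant at repeats, rose by 0.27, but by 0.08 with the length trend removed, which did not pass (adjusted p = 0.140). CBX1, a heterochromatin protein that binds methylated histone H3, fell from 53.2 and 55.2 FPKM to 33.7 and 36.7 (-0.58, adjusted p = 1.60e-26).

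Of 24 genes of the piRNA pathway and of germline repression, all tested, 3 rose, 1 fell and 20 did not pass, with a median log2 difference of -0.08. Of all rows tested 22.7% rose and 23.8% fell. With the offset 2 of the 24 genes rose and 3 fell. PIWIL2, a PIWI protein of fetal and early germ cells, rose from 2.18 and 2.38 FPKM to 3.07 and 2.86 (0.42, adjusted p = 1.58e-04). PIWIL4, the nuclear PIWI protein that directs DNA methylation to retroelements, fell from 4.13 and 3.48 FPKM to 2.69 in the first knockdown library and 2.67 in the second (-0.49, adjusted p = 5.73e-04; without the first control library -0.36, adjusted p = 0.0622). TEX15, a nuclear factor needed for that methylation in the mouse, rose by 0.48, or by 0.27 with the length trend removed. TDRD7, a Tudor protein of germ granules, passed narrowly (0.11, adjusted p = 0.0324) and lost the call by DESeq2 (adjusted p = 0.184), with the offset (adjusted p = 0.0612) and without either control library or the second knockdown library. Most genes of this list were low, and their 24 FPKM values summed to between 74.8 and 77.6 in each library.

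A list of genes tied to retroelement RNA or its copies held 17 tested genes, not all of which are cytosolic or restrict retroelements. Of the 17, 4 rose and 8 fell, with a median log2 difference of -0.17, where 22.7% of all rows rose and 23.8% fell. RNASEH2C, a subunit of the enzyme that cuts RNA in RNA-DNA hybrids, fell from 94.5 and 101 FPKM to 38.1 and 34.0 (-1.19, adjusted p = 1.19e-31). HMGB1, an abundant DNA-binding protein, fell by 0.40. PABPC1, the poly(A)-binding protein that also sits on LINE-1 RNA, rose from 298 and 303 FPKM to 439 and 442 (0.60), and ZC3HAV1, the zinc finger antiviral protein, rose by 0.40. The last list held genes derived from retroelements. It also held PGBD1 and PGBD5, of DNA transposon origin, and TERT, the telomerase gene, and none of these passed. Of its 11 tested genes 4 rose and 0 fell, with a median of 0.17, where 22.7% of all rows rose and 23.8% fell. With the length trend removed 4 of its genes rose and 1 fell, with a median of 0.02. L1TD1, an RNA-binding protein derived from LINE-1 ORF1, rose from 12.8 and 12 FPKM to 20.5 and 20.4 (0.77, adjusted p = 3.53e-26). PEG10, an imprinted gene derived from a gag and pol, rose from 36.9 and 37.5 FPKM to 52.4 and 54.7 (0.56). LDOC1 and RTL5, both derived from gag, rose by 0.26 and 0.21. DESeq2 did not call RTL5 (adjusted p = 0.0945), nor did edgeR without the first control library (adjusted p = 0.0562) or the first knockdown library (adjusted p = 0.106).

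**Figure D5:**
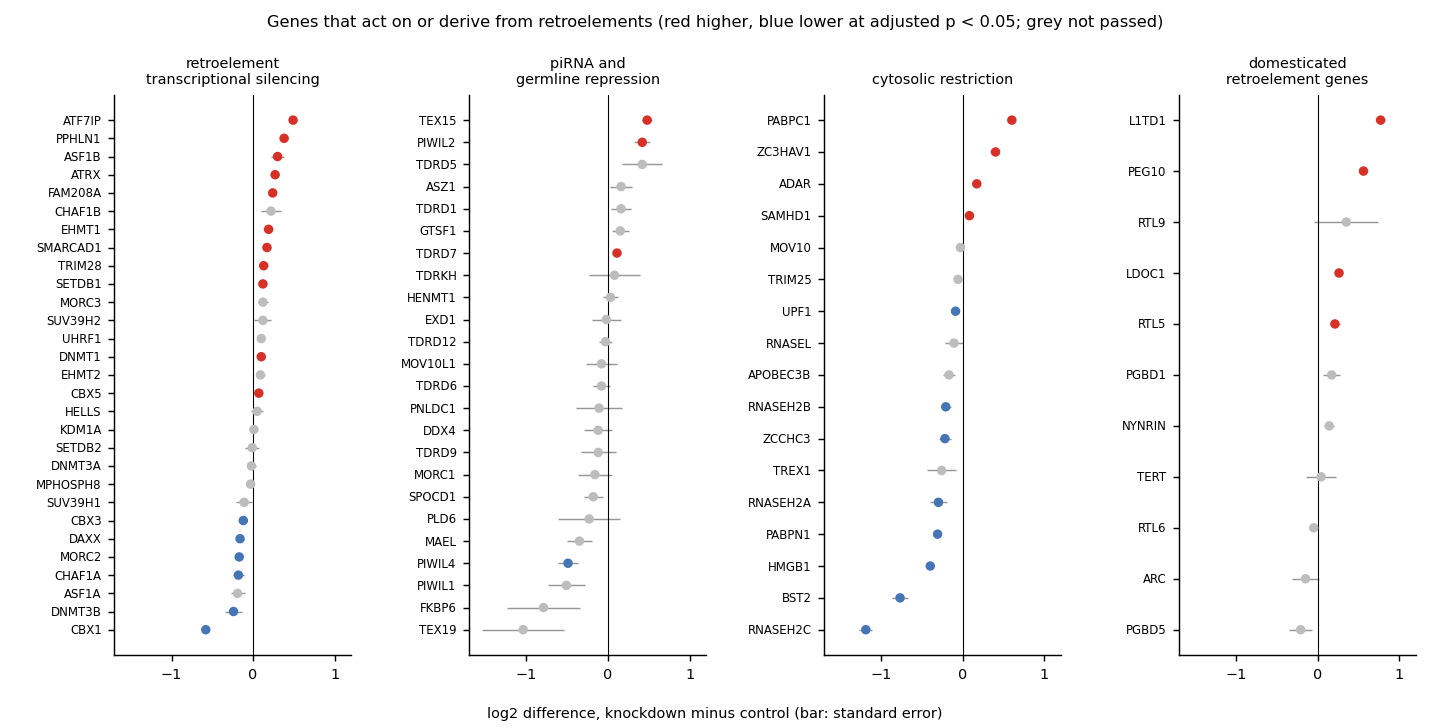
Log2 difference between knockdown and control (x axis, bars are standard errors) of the tested genes in 4 lists. These are chromatin silencing, piRNA and germline repression, genes tied to retroelement RNA or its copies (titled cytosolic restriction), and genes derived from retroelements. The last panel also holds PGBD1, PGBD5 and TERT, which do not derive from retroelements. Red points rose, blue points fell and grey points did not pass at an adjusted p of 0.05: CBX1 at -0.58 and RNASEH2C at -1.19 are the lowest called points of their panels, and L1TD1 at 0.77 is the highest of the last.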

How the data were processed

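RNA of 4 libraries (2 control, 2 knockdown) was analysed from gene tables. Per the labels' protocols, SOAPnuke 2.1.0 filtered the reads and HISAT2 2.2.1 placed them on Sscrofa 11.1; for counting with RSEM 1.3.3 they were mapped to transcripts by bowtie2 2.3.5. The deposited expected counts are not normalized. The deposited FPKM values are scaled to transcript length and library size by the authors, and the deposited TPM values to a fixed total. Lengths and effective lengths in bases were also deposited; lengths printed are means over the libraries. The assembly of unannotated transcripts is not given in the labels.

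Expected counts were rounded, filtered with filterByExpr (minimum count 10, total 15), scaled by TMM and tested with the quasi-likelihood test of edgeR 4.0.16 over all rows, with Benjamini-Hochberg adjustment and a threshold of 0.05. CPM use the TMM-scaled library sizes. The test was run on simulated counts for the same design. Alternatives used DESeq2 1.42.0, limma 3.58.1 on log2(FPKM + 1) and log2(FPKM + 0.1), mgcv 1.9.3 for a length trend, and an effective-length offset. Sequences come from the RefSeq assembly Sscrofa11.1, searched with BLAST+ 2.17.0. Members and gene lists were chosen with earlier results of these data known. Members named are the 6 highest by FPKM and the 6 largest called rises and falls in each set with a mean of at least 20 counts in the higher group and no overlap between groups, and for each gene list up to 4 genes with the smallest p and an FPKM of at least 1. Other unannotated loci named by length and the cell markers named were chosen after their values were seen.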

Additional observations from a re-analysis of the deposited data

How the results depend on the processing

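Of 20 unannotated loci called, 18 to 19 were called with 1 library left out (median log2 difference 0.58 to 0.79), and of 3 LOC loci 0 to 2. Of 17 unannotated rises, 13 were lost under none of the settings that gave a value, the rule of at least 2-fold not counted, and of 3 falls 1, the 1124-base locus. That rule drops the 669-, 1433-, 5581- and 8626-base loci from the 13. Of the 13, 12 had a value in every setting. The other, the retroviral locus of 738 bases, had no adjusted p by DESeq2. Only its knockdown libraries carried that locus through the low-count filter, so it had to differ and its place among the 13 is a description. None of the 3 LOC calls was kept throughout. With the replicate number as a block, 19 unannotated loci, 3 LOC loci and 7480 rows were called; only the 623-base locus lost its call (adjusted p = 0.0615). Same-numbered libraries did not deviate together (correlation 3.29e-04 over 15763 genes), so the numbers were not taken to pair them.

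By DESeq2, 4815 of all rows and 0 LOC loci were called; by an unadjusted p under 0.05 in edgeR, 3 LOC loci. Asking for at least 2-fold left 470 of 7319 rows, 13 unannotated and 0 LOC loci. Called LOC loci numbered 1 without the low-count filter, 0 in each of the 3 limma fits and 1 with the effective-length offset. With the length trend removed they numbered 5, of which 4 rose and 1 fell. Of loci with whole counts in every library, 5 of 8 tested unannotated and 0 of 1 LOC were called. By the LINE-1 wording alone these were 2 of 6 and 0 of 1, where 46.4% of all rows tested passed. The median of the unannotated loci was 0.86 without the filter, 0.39 and 0.49 by limma with pseudocounts 1 and 0.1, 0.45 with a lower FPKM minimum, 0.42 with the offset, 0.61 with the trend removed, 1.06 for whole counts, 1.02 for the reverse transcriptase and pol wording and 0.14 for the LINE-1 wording. The LOC median was -0.01 in the first 2 limma fits and 0.01 in the third. Whole counts and the LINE-1 wording each left 1 LOC locus, LOC100516731 at -0.12 and LOC102164659 at 0.27. Added after the data were seen, a minimum of 1000 bases left 6 calls of 12 tested unannotated loci, with a median of 0.10. A Swiss-Prot hit in place of the NR hit, also added then, gave 40 calls of 61 tested unannotated rows. It gave 23 calls of 63 tested LOC rows, with a median of 0.16, where 46.4% of all rows passed.

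Directions turned for the LOC sum (0.991 in FPKM), for LOC110256649 (-0.03 in the 3 limma fits), LOC100521647 (-0.03, -0.04 and -0.04 there, and -0.01 to 0.13 with 1 library left out, lowest without the first control library), LOC102164659 (-0.01 to 0.49) and LOC110256218 (-0.09 to 0.21), both lowest without the first knockdown library, for the latter also with the trend removed (-0.07), and the 245-base locus (-0.10 in the 3 limma fits, -0.02 with the offset). ZBTB16 kept its direction and missed the threshold by DESeq2 (-0.36) and by limma (-0.23, -0.36 and -0.36). Where a library was left out, fewer samples entered the fit, and the cause of none of the losses was tested. The 6 loci left untested had at most 15 counts in any library, and why their counts were low was not tested.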

Other observations

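Choosing rows by a Swiss-Prot match to LINE-1 or a Pol polyprotein, in place of the NR wording, took in further rows: 34 unannotated rows and 75 LOC rows had such a match without the NR hit. Under that choice 61 unannotated rows were tested, of which 35 rose and 5 fell, with a median log2 difference of 0.61. Of 63 tested LOC rows 16 rose and 7 fell, with a median of 0.16. Over all rows tested 46.4% passed, 22.7% higher and 23.8% lower. The members are part of these sets, so the counts are not independent of those above, and both choices were made with results of these data known.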
